A study of Mus musculus with 6 samples.

Results

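The enzymes described here reduce quinones (Nqo1, Nqo2), hydrolyse epoxides (Ephx1, Ephx2) and reduce the double bond of reactive alkenals and oxo-prostaglandins (Ptgr1, Ptgr2). Members were the 6 genes of these names, found by their symbol in the array's probe table. They had 13 of the 45101 probe sets on the array, and 6 of the 18193 genes with a probe set of their own. The data are signals of liver RNA, 1 array for each mouse, on a 1-colour mouse platform of Affymetrix. The knockouts were 3 male mice aged 9 weeks of the genotype Alb-Cre:Keap1(flox/-), numbered 3, 4 and 5 in the labels. Their controls were 3 male mice of the same age, numbered 1, 2 and 3, of the genotype Alb-Cre:Keap1(flox/+). Both groups carried Cre under the albumin promoter, which is active in hepatocytes, and 1 floxed Keap1 allele, so the controls had lost that allele wherever Cre acted. The minus allele carried by the knockouts needs no Cre. All 6 mice had received vehicle alone, made of 10% DMSO, 10% Cremophor-EL and 80% PBS.

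KEAP1 holds the transcription factor NRF2, the product of Nfe2l2, at a low level by directing it to degradation. When KEAP1 is lost or modified by electrophiles, NRF2 accumulates and binds antioxidant response elements with a small Maf partner. Nqo1 is the textbook target of that pathway. Its product, a cytosolic flavoprotein, reduces quinones to hydroquinones with NADH or NADPH and so bypasses the semiquinone radical. NQO2 is a close relative that uses dihydronicotinamide riboside as its electron donor. In liver, EPHX1 of the endoplasmic reticulum opens epoxides that cytochromes P450 make from drugs and pollutants, while the soluble EPHX2 turns epoxides of arachidonic acid into diols. PTGR1 reduces oxo-prostaglandins and lipid alkenals such as hydroxynonenal and also oxidises a leukotriene, and PTGR2 reduces oxo-prostaglandins.

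The RefSeq promoter table of build GRCm38.p6 held windows for 5 of the 6 genes (Nqo1, Nqo2, Ephx1, Ptgr1 and Ptgr2), with 2 starts for Nqo2. The 250 bases upstream of the start are shown for Nqo1 and the first Nqo2 start, since this pair had the largest shift between its members, knockouts relative to controls. Capitals mark the GC box (GGGCGG, either strand) and the TATA box (TATAAA, either strand). The Nqo1 stretch is chr8:107403206-107403455 on the minus strand and the Nqo2 stretch is chr13:33964409-33964658 on the plus strand, both written 5′ to 3′ along the gene.
Nqo1: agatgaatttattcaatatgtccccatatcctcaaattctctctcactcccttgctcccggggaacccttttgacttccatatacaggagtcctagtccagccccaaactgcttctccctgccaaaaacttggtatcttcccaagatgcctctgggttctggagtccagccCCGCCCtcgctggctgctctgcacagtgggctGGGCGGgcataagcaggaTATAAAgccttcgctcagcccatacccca
Nqo2: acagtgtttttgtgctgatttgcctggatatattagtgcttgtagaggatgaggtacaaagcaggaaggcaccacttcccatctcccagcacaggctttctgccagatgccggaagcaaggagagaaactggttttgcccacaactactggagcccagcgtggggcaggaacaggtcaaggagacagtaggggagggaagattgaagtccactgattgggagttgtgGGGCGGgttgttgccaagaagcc
The Nqo1 stretch held 2 GC boxes, which began 79 and 47 bases before the start, and a TATA box that began 29 bases before it. The Nqo2 stretch held 1 GC box, 23 bases before the start, and no TATA box. GC boxes were found in 32.7% and TATA boxes in 12.4% of the 32851 windows of this length. The core of the antioxidant response element, TGACNNNGC on either strand, was in none of the 6 windows of these genes, and 10.2% of all windows held it. That absence concerns these letters and this window alone. The core of the xenobiotic response element, GCGTG on either strand, to which the aryl hydrocarbon receptor binds, was in both Nqo2 windows, at 93 and 137 bases before the starts, and in 28.2% of all windows.

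The targeted gene was lower in the knockouts. The brighter Keap1 probe set gave 151 to 326 in the knockouts, against 700 to 843 in the controls, without overlap (log2 difference -1.74, limma adjusted p = 0.0102). The other Keap1 probe set gave 206 to 446 in the knockouts, against 477 to 564 in the controls, a log2 difference of -0.71 that did not pass (limma adjusted p = 0.222). The defining hepatocyte gene Alb, for serum albumin, gave 25933 to 28702 in the knockouts, against 22569 to 25027 in the controls. All arrays had a trimmed mean signal of 500.0 (2% trimmed at both ends), and 3′ over 5′ signal of actin, a measure of RNA integrity, was 1.58 to 1.85 in the knockouts and 1.54 to 1.90 in the controls. In all, 415 of 27022 probe sets tested differed (limma adjusted p under 0.05), 220 higher and 195 lower. Scaling the arrays on their hybridisation spikes moved the median of all probe sets by -0.18 and turned that split into 132 higher and 472 lower.

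Among the 6 enzymes, Nqo1 rose in the knockouts and no other passed the test. Of 13 probe sets, 12 were bright enough to be tested, and 1 of them was called higher and 0 lower, where 0.814% of all tested probe sets were called higher and 0.722% lower. At an unadjusted p under 0.05 there were 3 higher, one each for Nqo1, Ephx1 and Ptgr1, and 0 lower, against 14.5% of all probe sets in either direction. The groups did not overlap in 3 of the 12, which is near the 20.5% of all probe sets. By its brightest probe set each, 4 of the 6 genes lay above the controls in mean log2 signal and 2 below. Of 13036 genes, 47.2% lay above. The median log2 difference of the 6 was 0.22, against -0.02 over the 13036 genes. Within each functional pair it was the first-numbered gene (Nqo1, Ephx1 and Ptgr1) that had the larger log2 difference, knockout minus control.

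**Figure D1:**
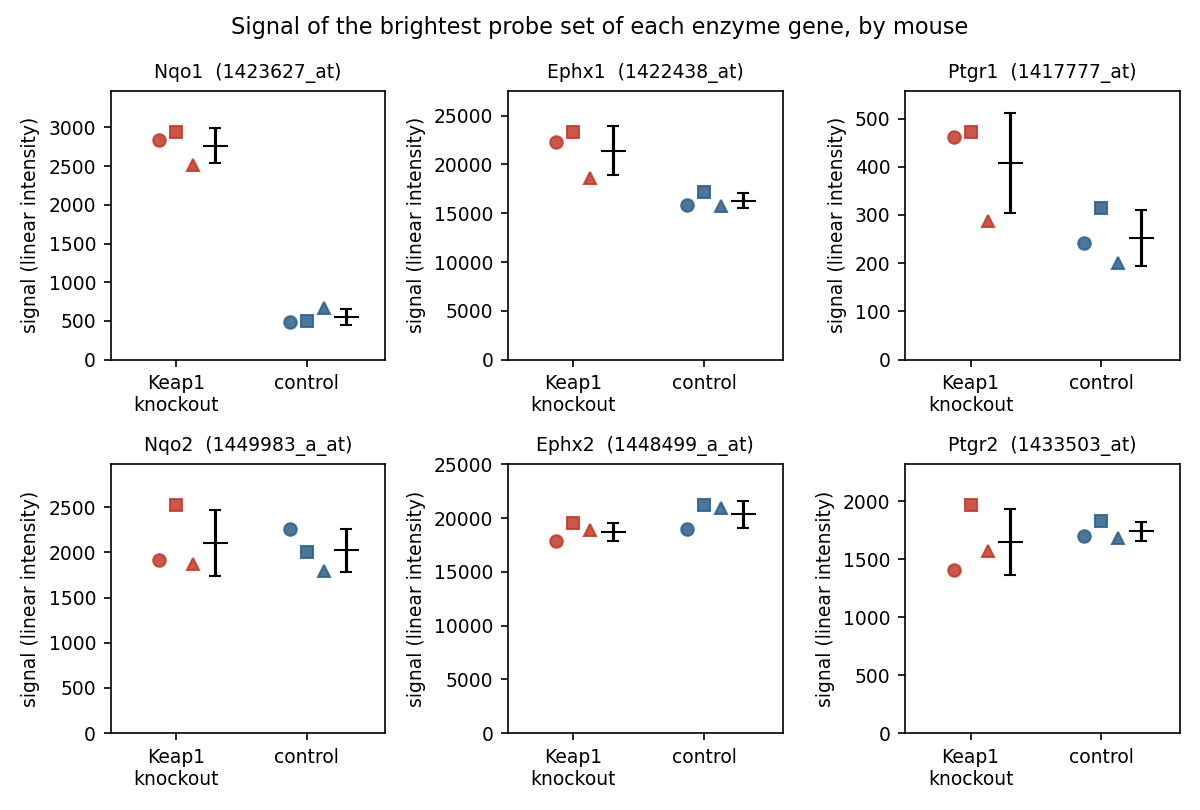
Signal (linear intensity, axis from 0) of the brightest probe set of each gene in the 3 knockouts (red, left) and 3 controls (blue, right). Circle, square and triangle are knockouts 3, 4 and 5 or controls 1, 2 and 3, and black bars are the mean with its SD. Nqo1 and Ephx1 are the 2 genes whose groups do not overlap.

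Nqo1, the quinone reductase, had signals of 2842, 2946 and 2509 in knockouts 3, 4 and 5, against 487, 495 and 666 in controls 1, 2 and 3. The lowest knockout was well above the highest control, and the spread within either group was small beside the gap. The means were 2766 ± 228 in the knockouts and 549 ± 101 in the controls (n = 3 each, SD). On the log2 scale the groups differed by 2.31 ± 0.14 (SE; limma adjusted p = 0.000161), a 4.96-fold rise with a 95% interval of 3.96 to 6.21. Among all 27022 probe sets this was the 41st largest rise and the 9th smallest p-value. The call held in all 18 other settings, where the log2 difference lay between 2.12 and 2.45 and the adjusted p between 7.27e-05 and 0.00469. Relative to the median of all probe sets, the value was 2.35, and 2.34 after scaling on the hybridisation spikes. The array held 1 probe set for Nqo1, so no second one could be set beside it.

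Nqo2, the relative that takes electrons from dihydronicotinamide riboside, showed no such rise in any of its 3 probe sets. The brightest, 1449983_a_at, had signals of 1919, 2522 and 1872 in the knockouts, against 2262, 2007 and 1792 in the controls. Knockout 4 was the highest of the 6 arrays, while the other knockouts lay within the range of the controls. The log2 difference was 0.05 with a 95% interval of -0.27 to 0.37 (limma adjusted p = 0.908), so a change beyond 1.30-fold upward lay outside the interval. Its sign was negative in 4 of the other settings. The other probe sets share 1 source accession. For 1455590_at the means were 1233 ± 244 in the knockouts and 1430 ± 137 in the controls (n = 3 each, SD), a log2 difference of -0.22 (adjusted p = 0.541). For 1436189_at the signals were 524, 644 and 598 in the knockouts, against 660, 660 and 674 in the controls. Here all 3 knockouts lay below all 3 controls, by a log2 difference of -0.18 that did not pass (adjusted p = 0.561).

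Ephx1, the microsomal epoxide hydrolase, had signals of 22312, 23356 and 18550 in knockouts 3, 4 and 5, against 15861, 17181 and 15775 in controls 1, 2 and 3. Every knockout was above every control, with knockout 5 nearest to them. The means were 21406 ± 2528 in the knockouts and 16272 ± 788 in the controls (n = 3 each, SD). The log2 difference of 0.39 had a standard error of 0.11 and a 95% interval of 0.15 to 0.63, and it did not pass over all probe sets (unadjusted p = 0.00511, limma adjusted p = 0.132). Over the 18 other settings it was positive, between 0.20 and 0.49, and the adjusted p was between 0.0585, without knockout 5, and 0.388. Some of these settings, such as another filter or no variance trend, cannot move the log2 difference. Hepatocyte markers moved the same way, with 12 of 14 above the controls in mean log2 signal, against 47.2% of 13036 genes. Their median was 0.18, with 0 called (5 higher and 0 lower at an unadjusted p under 0.05). Their summed signal was 306997 to 344583 in the knockouts against 267866 to 307205 in the controls. The largest differences among these markers were those of Hnf4a at 0.41 and Tdo2 at 0.34 (limma adjusted p = 0.121 and 0.126). The part of hepatocyte markers in the Ephx1 value was not tested. In whole liver, more cells of a type and more RNA per cell cannot be told apart. By mean signal, Ephx1 lay above 99.5% of the probe sets that are not controls. Its log2 difference was 0.25 after quantile normalization and 0.27 after cyclic loess. Any part of brightness or array scaling in the Ephx1 and marker values was not tested.

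Ephx2, the soluble epoxide hydrolase, had signals of 17833, 19501 and 18892 in the knockouts, against 18947, 21216 and 20898 in the controls. Knockout 4 was above control 1, so the groups overlapped, although the other knockouts lay below every control. The log2 difference was -0.12 with a 95% interval of -0.32 to 0.08 (limma adjusted p = 0.583), or 0.921-fold with an interval of 0.802 to 1.06. In all 18 other settings the log2 difference was negative, between -0.31 after scaling on the hybridisation spikes and -0.03 after median centring. Its sign was fixed in settings that change only the filter or the variance trend. It was called in none of them (limma adjusted p of 0.193 to 0.950).

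Ptgr1, the alkenal reductase, had signals of 462, 473 and 287 in knockouts 3, 4 and 5, against 243, 314 and 200 in controls 1, 2 and 3. Knockouts 3 and 4 stood above all controls, but knockout 5 was below control 2. The means were 407 ± 104 in the knockouts and 252 ± 57.5 in the controls (n = 3 each, SD). The log2 difference was 0.65 with a standard error of 0.23 and a 95% interval of 0.12 to 1.17 (unadjusted p = 0.0208, limma adjusted p = 0.243). It was positive in all 18 other settings, from 0.47 to 0.87, the largest without knockout 5, and was called in none of them (adjusted p of 0.118 to 0.535). The sign was fixed in settings that change only the filter or the variance trend. As folds, the interval runs from 1.09 to 2.25.

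Ptgr2, the prostaglandin reductase, was covered by 6 probe sets, of which 5 were tested. The brightest, 1433503_at, had signals of 1411, 1967 and 1574 in the knockouts, against 1704, 1830 and 1684 in the controls. The knockouts spread on both sides of the controls. Its log2 difference was -0.09 with a 95% interval of -0.39 to 0.21 (limma adjusted p = 0.815). Over the 5 tested probe sets the differences ran from -0.15 to 0.22, with 4 below the controls and 1451744_a_at above them. That probe set averaged 959 ± 53.1 in the knockouts and 826 ± 85.4 in the controls (n = 3 each, SD; adjusted p = 0.459). The probe set 1459291_at was too dim for the test, at 21.1, 26.9 and 41.8 in the knockouts, against 4.1, 26.4 and 56.1 in the controls. Probe sets of Ptgr2 did not all follow each other over the 6 arrays: 1433503_at and 1429474_at had a Pearson r of 0.73, but 1433503_at and 1451744_a_at one of 0.05 (n = 6, as a description).

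**Figure D2:**
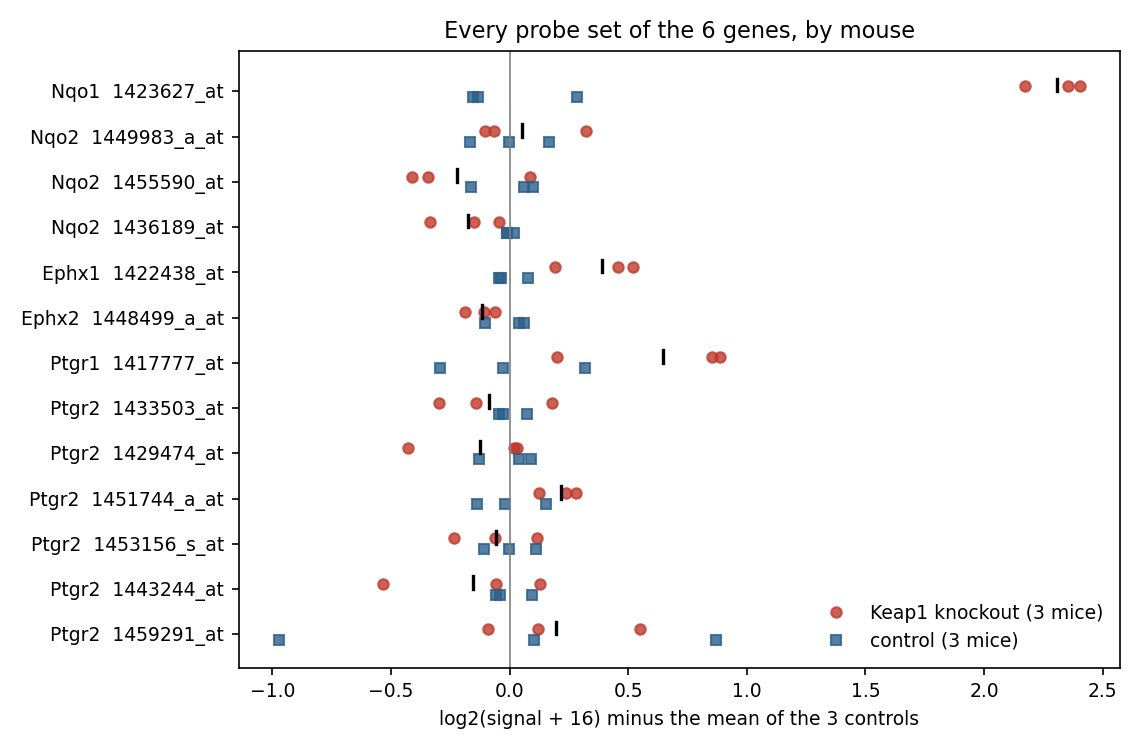
Each of the 13 probe sets by mouse, as log2(signal + 16) minus the mean of the 3 controls; red circles are knockouts, blue squares controls and the black tick is the knockout mean. Nqo1 stands alone at 2.31, Ephx1 and Ptgr1 lie to the right of most controls, and the dim Ptgr2 probe set at the bottom has the widest spread.

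**Figure D3:**
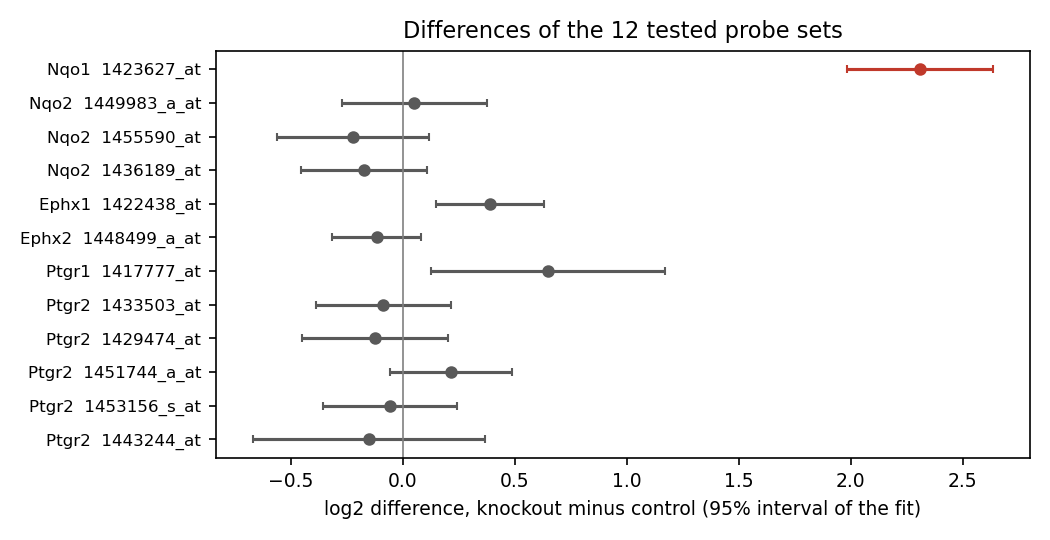
Log2 difference (knockout minus control) of the 12 tested probe sets with the 95% interval of the limma fit; red passed the threshold. The intervals of Nqo1, Ephx1 and Ptgr1 lie above 0, without adjustment for the number of probe sets tested.

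The 2 members of each pair were compared within arrays, which takes out any scaling of a whole array. The gap between Nqo1 and Nqo2, set to a mean of 0 in the controls, was 2.42, 2.08 and 2.28 on the log2 scale in knockouts 3, 4 and 5, against -0.32, -0.13 and 0.45 in controls 1, 2 and 3. The difference between the log2 differences of the 2 genes was therefore 2.26, a 4.79-fold relative shift toward Nqo1. For Ephx1 and Ephx2 the gap was 0.64, 0.58 and 0.30 in the knockouts, against 0.07, 0.02 and -0.08 in the controls, a shift of 0.51. For Ptgr1 and Ptgr2 it was 1.15, 0.71 and 0.34 in the knockouts, against 0.00, 0.25 and -0.25 in the controls, a shift of 0.74. In all 3 pairs every knockout lay above every control by the brightest probe sets. The exact two-sided permutation test gave p = 0.1 for each pair, also after adjustment over the 3 pairs, and 0.1 is the smallest p that 3 mice against 3 can give, so the design cannot reach the threshold with this test. With the mean over all probe sets of each gene, the shift of Ptgr1 over Ptgr2 was 0.65 with an exact p of 0.3, above that smallest p.

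**Figure D4:**
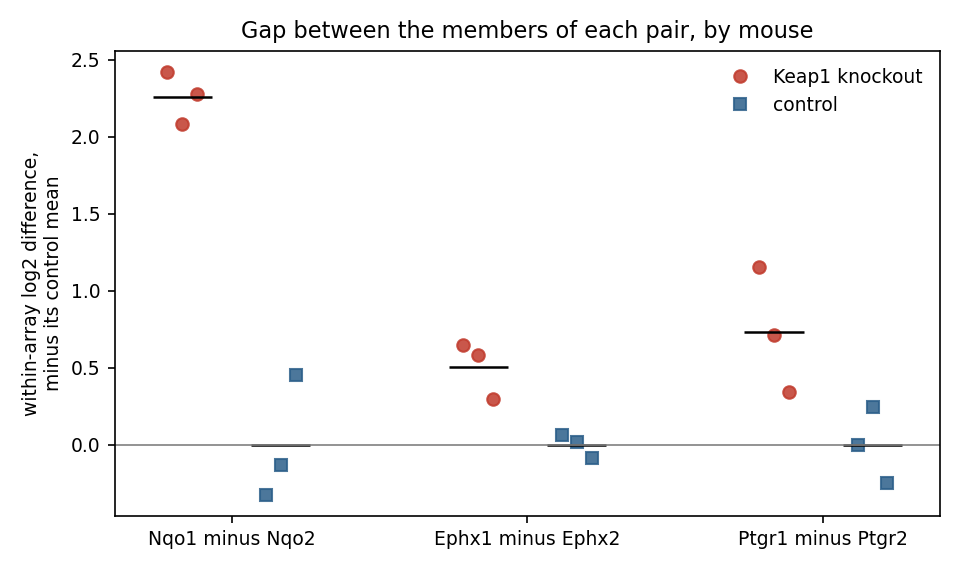
Within-array log2 gap between the 2 genes of each pair, minus its mean in the controls, for 3 knockouts (red circles, left of each pair) and 3 controls (blue squares, right); bars are means. Knockouts lie above controls in each pair, by 2.26 for Nqo1 over Nqo2, 0.51 for Ephx1 over Ephx2 and 0.74 for Ptgr1 over Ptgr2.

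Other enzymes for the same substrates were counted by list. Counts are by the brightest probe set of each gene, and of 13036 genes 0.982% were called higher and 0.89% lower. Of 15 other quinone and electron-transfer reductases tested, 3 rose and 0 fell (5 higher and 0 lower at an unadjusted p under 0.05), with a median log2 difference of 0.12. These were the carbonyl reductases Cbr3 (6.73) and Cbr1 (2.56), which also reduce quinones, and the thioredoxin reductase Txnrd1 (1.25), all 3 called in every other setting and without any 1 array. Zeta-crystallin, the quinone reductase of Cryz, differed by 0.08 (adjusted p = 0.803), and Aifm2, which reduces ubiquinone, by 0.39 (adjusted p = 0.25); both are named after their values were seen. Of 17 alkenal and aldehyde clearing enzymes, 0 rose and 1 fell (5 higher and 2 lower at an unadjusted p under 0.05), with a median of 0.15. It was the alcohol dehydrogenase Adh4, at 4322 ± 147 in the knockouts and 7678 ± 1555 in the controls (n = 3 each, SD; limma adjusted p = 0.0254), a call lost without knockout 3, 4 or 5 or control 2, where the adjusted p reached 0.0909. Gsta4, the glutathione transferase most active on hydroxynonenal, differed by 1.25 without passing (adjusted p = 0.0516; named after its value was seen).

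Among 9 other enzymes of epoxides, 1 rose and 0 fell (4 higher and 0 lower at an unadjusted p under 0.05), with a median of 0.23. It was the glutathione transferase Gstm2, 3.46-fold higher (limma adjusted p = 0.000231), called without any 1 array. Of the 12 P450 enzymes that make epoxides, 1 rose and 1 fell (2 higher and 1 lower at an unadjusted p under 0.05), with a median of 0.06. Cyp2j9 averaged 127 ± 24.1 in the knockouts and 281 ± 25.2 in the controls, and Cyp2c39 617 ± 82.6 in the knockouts and 349 ± 48.8 in the controls (n = 3 each, SD; limma adjusted p = 0.0350 and 0.0481). The Cyp2c39 call was lost without any 1 array, and the Cyp2j9 call without any 1 array but knockout 5. Of 14 genes of prostaglandin and leukotriene handling, 0 were called (1 higher and 1 lower at an unadjusted p under 0.05), with a median of 0.07. The largest differences were those of the prostaglandin synthases Ptgds at -1.08 (adjusted p = 0.0792) and Ptges at 0.57 (adjusted p = 0.327).

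Among genes that conjugate and export hydroquinones, several rose. Of 12 tested, 5 rose and 0 fell (10 higher and 1 lower at an unadjusted p under 0.05), with a median of 0.65. The efflux pump Abcc4 was 20.6-fold higher, Ugdh, which makes the donor for glucuronidation, 2.01-fold, and the pumps Abcc2 and Abcc3 1.71-fold and 1.64-fold. The only conjugating enzyme called was Ugt2b35, 1.53-fold higher. Without 1 array the count was 2 to 4. It was 2 without control 2 and 3 without knockout 3, knockout 5 or control 3. Abcc4 and Ugdh were called without any 1 array, but Abcc2, Abcc3 and Ugt2b35 in only 2 of the 6 such runs each. Of 11 genes that supply NADPH, 1 rose, Pgd of the pentose phosphate pathway at 2.19-fold, and 0 fell (2 higher and 0 lower at an unadjusted p under 0.05), with a median of 0.05. Of 18 genes of the NRF2 pathway and its classical targets, 6 rose and 2 fell (10 higher and 3 lower at an unadjusted p under 0.05), with a median of 0.30. Gpx2, a glutathione peroxidase, averaged 1082 ± 234 in the knockouts, against 53.6 ± 20.4 in the controls (n = 3 each, SD). The sulfiredoxin Srxn1 was 4.34-fold and Txnrd1 2.37-fold higher, while Keap1 and Nfe2l2 fell by their brightest probe sets. A second, dimmer Nfe2l2 probe set differed by -0.18 without passing (adjusted p = 0.716). Without 1 array 4 or 5 of these genes were called higher. In 5 such runs 1 gene was called lower, with 4 higher without knockout 3, knockout 5, control 1 or control 2, since the Nfe2l2 call was kept only without knockout 4.

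Receptors that are known to act on some of the members were counted in the same way, together with their targets. The lists thus hold Ahr and its partner Arnt, the CAR and PXR genes Nr1i3 and Nr1i2, and Ppara. Of 6 genes of the aryl hydrocarbon receptor, a known inducer of Nqo1, 0 were called (1 higher and 1 lower at an unadjusted p under 0.05; 1 called higher without control 1), with a median of 0.15. Cyp1a2 averaged 20375 ± 2326 in the knockouts, against 13281 ± 4169 in the controls (n = 3 each, SD; limma adjusted p = 0.159). Arnt differed by -0.40 (adjusted p = 0.336). Of 11 genes of CAR and PXR, drug-sensing receptors known to induce Ephx1, 2 rose and 0 fell (7 higher and 1 lower at an unadjusted p under 0.05), with a median of 0.54. These were the stress gene Gadd45b (4.26-fold) and Abcc3, which was also counted among the genes of hydroquinone export. Without 1 array the count was 0 to 2; it was 0 without control 3 and 1 without each knockout or control 2, and without knockout 4 another gene was called lower. Of 11 genes of PPARalpha, which is known to induce Ephx2, 0 were called (0 higher and 1 lower at an unadjusted p under 0.05; 1 called lower without knockout 4), with a median of -0.16. The largest differences were those of Acot1 at -0.65 and Vnn1 at -0.53 (adjusted p = 0.437 and 0.459).

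Markers of other liver cells gave 0 calls. Of 6 cholangiocyte markers, bile duct being a known site of NQO1, all lay below the controls, with 0 at an unadjusted p under 0.05, a median of -0.57 and a summed signal, over the 7 measured, of 742 to 975 in the knockouts against 745 to 1980 in the controls. Control 2 held the highest sum, and without it the median was -0.20 and 2 of the 6 markers lay above the controls. Their part in the Nqo1 value was not tested. Of 14 markers of Kupffer cells and leukocytes, 7 lay above and 7 below (2 higher and 0 lower at an unadjusted p under 0.05; summed signal over the 16 measured 14273 to 18736 in the knockouts against 11038 to 17752 in the controls). Endothelial markers had a median of -0.05, or 0.0018 without knockout 5 (8 tested, 1 higher and 0 lower at an unadjusted p under 0.05; summed signal 6162 to 6466 in the knockouts against 5982 to 6176 in the controls). Stellate and fibroblast markers had a median of -0.09 (10 tested, 0 higher and 1 lower; summed signal 13733 to 14687 in the knockouts against 13815 to 16177 in the controls). No marker of these lists had a mean under 16, but single arrays did. Krt19 gave 88.5, 11.3 and 18.4 in knockouts 3, 4 and 5, against 8.3, 502 and 17.4 in controls 1, 2 and 3. The 2 largest differences of each list did not pass. For Kupffer cells and leukocytes they were Marco at 1.40 and S100a8 at 0.69 (limma adjusted p = 0.120 and 0.511). For endothelium they were Lyve1 at 1.29 and Vwf at -0.22 (adjusted p = 0.118 and 0.711). Of the 8 endothelial markers, 2 lay above the controls and 6 below. For cholangiocytes they were Epcam at -1.04 and Cldn7 at -0.77 (adjusted p = 0.543 and 0.523). For stellate cells and fibroblasts they were Acta2 at -0.70 and Col3a1 at -0.63 (adjusted p = 0.462 and 0.401).

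**Figure D5:**
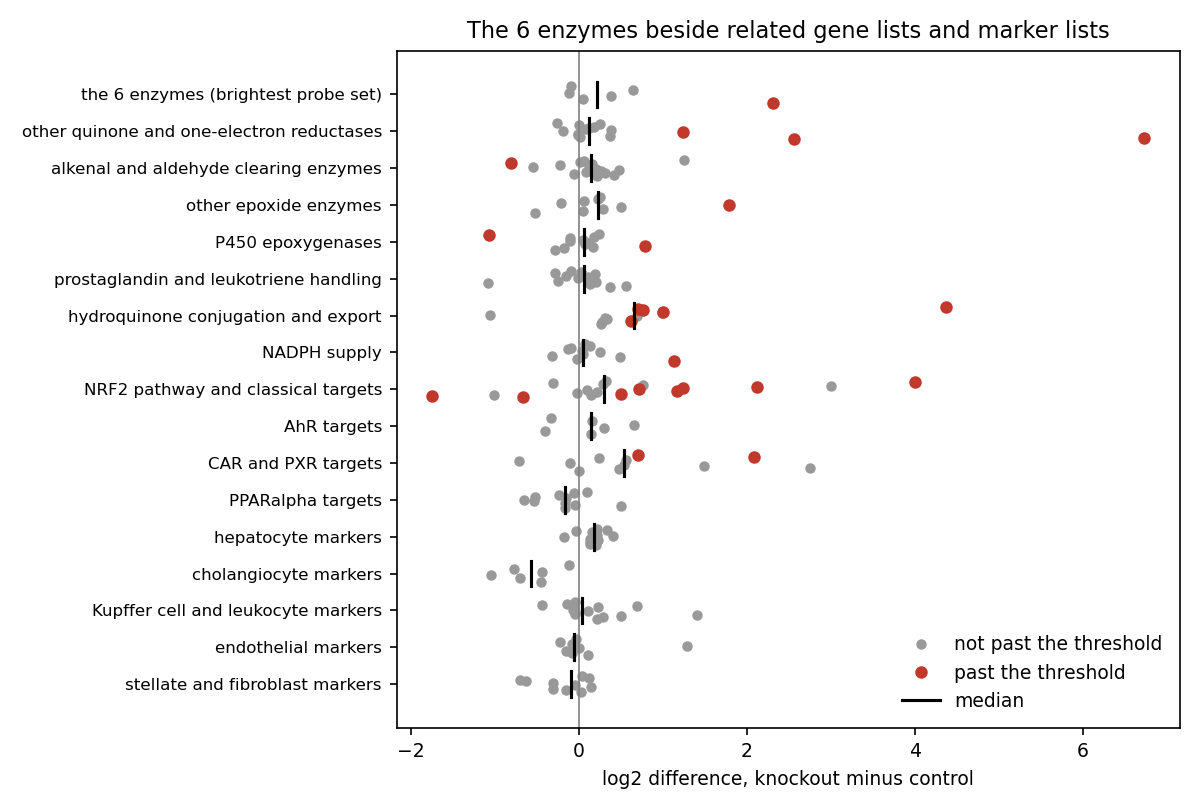
Log2 difference (knockout minus control) of each tested gene, by its brightest probe set, for the 6 enzymes and 16 lists of related genes and cell type markers; red points passed the threshold and black bars are medians. The 6 enzymes have 1 red point, Nqo1, and the list of hydroquinone conjugation and export has 5.

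Across the 6 arrays the members did not form one pattern. The log2 signals of Ephx1 and Ptgr1 had a Pearson r of 0.96, those of Nqo1 and Ephx1 0.88 and those of Nqo1 and Ptgr1 0.73, while Nqo1 and Nqo2 had 0.12 and Nqo1 and Ephx2 -0.64. The arrays and their 2 groups are shared by all members, so these are descriptions over 6 points. Among 13035 other genes, the 3 whose signals followed Nqo1 most closely were Dnajc13, Prkaa2 and Srxn1, with r of 0.996, 0.994 and 0.993, and 11 genes were above 0.99. Those nearest to Ephx1 were Snx3, Fam162a and Entpd5 (r of 0.994, 0.988 and 0.987). Those nearest to Ptgr1 were L3hypdh, Dtx3 and Tmcc1 (r of 0.997, 0.993 and 0.987). For Nqo2 they were Atg3, Mrps15 and Akap11 (0.976, 0.970 and 0.968), for Ephx2 Smim3, Txnrd2 and Fbxl7 (0.993, 0.986 and 0.983) and for Ptgr2 Pimreg, Xylb and Ces1d (0.985, 0.974 and 0.966). With 6 arrays and this many genes, values of this size are found for genes that differ little between the groups, as Dnajc13 did (log2 difference 0.19, adjusted p = 0.447).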

How the data were processed

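Liver RNA of 6 mice was measured on 6 arrays. The deposited values are linear intensity, 1 per probe set and array; from the values, the authors had scaled every array to a shared trimmed mean. Per the labels' protocols, cRNA was labelled with biotin after oligo(dT)-primed cDNA synthesis. How the probes were summarised: not given in the sources used here. Groups and mouse numbers came from the labels.

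The dimmest 40% of probe sets by mean signal (under 84.2, control probe sets aside) were left out of the tests. The groups were compared on log2(signal + 16), so fold changes understate those of dim genes, in limma 3.58.1 (R 4.3.3), using a two-sided moderated fit whose variance follows the mean signal. Its p-values were adjusted by Benjamini-Hochberg across 27022 probe sets, with 0.05 as threshold. "Rose" and "fell" mean past that threshold. A gene of a list is represented by its brightest probe set with 1 symbol. Pairs were compared with an exact permutation test over arrays. Steps were tested on simulated arrays. Alternatives were other filters, offsets, normalizations and variance models, and leaving out each array; scaling on the hybridisation spikes, and marker medians without each array, were added after seeing the data. The number of arrays limits the precision.

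The members and lists were chosen with earlier results of these data known. Named genes were the members with every probe set, Keap1, Nfe2l2, up to 4 called genes with the largest difference per list or the 2 largest where none was called, and the 3 genes most correlated with each member. Alb, Cryz, Aifm2, Gsta4 and Ugt2b35 were named outside this rule.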

Additional observations from a re-analysis of the deposited data

How the results depend on the processing

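Of the 12 tested probe sets of the 6 enzymes, 1 was called higher and 0 lower in each of the 18 other settings (other filters, offsets, normalizations, variance models, 1 probe set per gene, or without 1 array). The called one is Nqo1 throughout; with 1 probe set per gene, the brightest of each was tested. Uncalled differences changed sign in a few settings. For the brightest Nqo2 probe set the log2 difference was -0.14 after scaling on the hybridisation controls, -0.00093 with array weights, and -0.085 to 0.14 without 1 array (negative without knockout 4 or control 3). For Ptgr2, without 1 array, it ran from -0.22 to 0.018 (1433503_at), -0.20 to 0.026 (1429474_at) and -0.15 to 0.028 (1453156_s_at), each positive without knockout 3, and from -0.29 to 0.037 (1443244_at), positive without knockout 4. The shift within pairs was positive in 13 other settings each, at 2.10 to 2.48 for Nqo1 over Nqo2, 0.44 to 0.61 for Ephx1 over Ephx2 and 0.53 to 0.93 for Ptgr1 over Ptgr2. Not all of these settings test the shift. Rescaling a whole array, by its median or its spikes, can hardly move a gap within arrays, and Ephx1 over Ephx2 stayed at 0.51. Averaging the probe sets of a gene cannot move that pair, since Ephx1 and Ephx2 had 1 probe set each.

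Over the 133 genes of the lists other than markers, 17 were called higher and 4 lower. Of 13036 genes, by the brightest probe set of each, 0.982% were called higher and 0.89% lower. Without the variance trend the list counts were 8 higher and 0 lower, and with array weights 23 and 5. With no filter or after median centring 2 were lower. Without 1 array 11 to 14 were higher and 1 to 4 lower; the higher count was 11 without knockout 3 or control 2. Over all 27022 probe sets tested, 71 were called higher and 38 lower without the trend, 188 and 122 after median centring, and 303 and 277 with array weights. Without a filter, where 45037 were tested, the counts were 143 and 128. Without 1 array they were 85 to 152 and 65 to 144. The cause was not tested. No paired analysis was run, since the labels used here pair no knockout with a control.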
